A study of Mus musculus with 24 samples.

Results

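The genes described here encode the proteins of the mitochondrial ribosome, chosen as the protein-coding genes whose symbol is Mrpl or Mrps followed by a number. There were 78 of them among the 54532 gene IDs listed, 49 with an Mrpl symbol (large subunit) and 29 with an Mrps symbol (small subunit). Their RNA was measured in mouse embryos without Cmtr2, an enzyme that methylates the second transcribed nucleotide beside the mRNA cap, and in WT littermates. The 24 libraries fall into 3 sets, E8.5 embryo, E9.5 embryo and E9.5 yolk sac, with 4 Cmtr2 KO and 4 Cmtr2 WT libraries in each. The KO is constitutive, so every cell of the conceptus carries it, and both genotypes were untreated as far as the labels say. Per the series' description, KO embryos looked like their littermates at E8.5 and were smaller at E9.5, and the embryos came from 2 litters at E8.5 and 4 at E9.5.

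The mitochondrial ribosome is built from RNAs transcribed inside the organelle and from proteins that are all encoded in the nucleus, made in the cytosol and imported. It translates the few mRNAs of the mitochondrial genome, which encode core subunits of the respiratory chain and of ATP synthase. Some of its proteins descend from bacterial ribosomal proteins and others are found only in mitochondria. Several symbols do not match the place of the protein. Mrps30 and Mrps18a sit in the large subunit, and Mrps36 is a part of the oxoglutarate dehydrogenase complex rather than of the ribosome.

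Depth ran from 15555422 to 23379198 fragments per library, recovered from the deposited values. Cmtr2 RNA in KO libraries was 11.4 percent of the WT mean in E8.5 embryos, 15.4 percent in E9.5 embryos and 5.52 percent in yolk sac (exact two-sided permutation test, p = 0.0286 in each set with n = 4 per genotype, the smallest p that this design allows). Libraries were grouped by title, since the characteristics give the other genotype for each of the 24 and Cmtr2 followed the titles. Libraries were not alike in content in the embryo sets. The summed FPKM of 5 yolk sac endoderm markers ran from 2.13 to 316.4 in WT and from 45.0 to 500.7 in KO embryos, and that of 5 tailbud markers from 22.5 to 125.0 and from 60.7 to 125.1. Summed primitive erythroid markers ran from 5751 to 10514 in WT and from 1203 to 12549 in KO E9.5 embryos, cardiomyocyte markers from 9.29 to 485.3 and from 112.6 to 685.5, and neural markers from 72.7 to 157.5 and from 57.3 to 88.1. In E8.5 embryos the erythroid sum was 2821 to 3807 in WT and 183 to 6699 in KO, the endoderm sum 1502 to 3760 and 2865 to 5974, and the neural sum 42.4 to 93.1 and 34.7 to 72.2. For E9.5 embryos a fit without the 3 libraries low in tailbud genes is given under the processing alternatives. Otherwise the part of these markers in the results below was not tested. In yolk sac the endoderm sum was 7647 to 12584 with none of the 5 markers at 0. Bulk values cannot tell fewer cells of a type from less RNA per cell. Levels below are scaled FPKM, that is fragments per gene length and library size, with a scaling factor for each library, and fold changes are log2 values of KO over WT.

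Of the 78 genes, 77 were tested in every set. Mrpl53 was listed at 0 in all 24 libraries, and 88.0 percent of its exon bases are shared with other genes, chiefly Gm42688 on the same strand. In WT E9.5 embryos the 77 genes spanned 3.34 to 73.5 scaled FPKM, a 22-fold range, around a median of 19.1. The highest were Mrpl54 at 73.5 ± 15.9, Mrpl34 at 72.1 ± 12.2 and Mrpl12 at 66.8 ± 10.8 (SD, n = 4 each), 3 large-subunit proteins whose order is within their spread. The lowest were Mrpl48 at 4.37 ± 0.563 and Mrpl33 at 3.34 ± 0.208. WT yolk sac put the same 3 genes on top, with Mrpl34 at 78.9 ± 13.5, Mrpl54 at 72.1 ± 13.6 and Mrpl12 at 66.5 ± 12, again within their spread. Mrpl33 was again lowest there at 3.11 ± 0.251, next to Mrps25 at 4.51 ± 0.595. The E8.5 table was made with another gene length, so its order stands alone. Its top members were Mrpl18 at 165 ± 13, Mrpl20 at 143 ± 19.2 and Mrps21 at 129 ± 14, and its lowest with a value above 0 were Mrps30 at 12.4 ± 2.87 and Mrpl1 at 14.9 ± 1.34. The SD of a WT member was typically 13.5 percent of its mean in E8.5 embryos, 15.2 percent in E9.5 embryos and 10.5 percent in yolk sac.

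In E9.5 embryos, mitochondrial ribosomal protein mRNAs lay mostly above WT in KO. In all, 11 of the 77 rose and none fell (limma, adjusted p under 0.05 over all 12027 genes tested), while 7.35 percent of all genes tested were called higher and 6.26 percent lower. At an unadjusted p under 0.05, 27 members were higher and 1 was lower. The median log2 fold change of the members was 0.323, against 0.007 over all genes, and 69 of 77 members were above 0, against 50.7 percent of all genes. With libraries rescaled to TPM, the member median was -0.030 and that of all genes -0.317, so the distance between them was 0.287 in place of 0.316. None of the 11 was called with the replicate number as a block, where calls over all genes fell too. The call of the 11 genes also depended on single libraries. It held for all 11 without WT replicate 1 or KO replicate 1, for 3 without WT replicate 4, and for 0 when WT replicate 2 or 3 or KO replicate 2, 3 or 4 was left out, where the calls over all genes fell as well, to between 78 and 181 higher from 884.

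The proteins behind the 11 risen genes belong to both subunits, with 6 of 48 tested Mrpl genes and 5 of 29 Mrps genes. Median log2 fold changes were 0.280 for the large and 0.403 for the small subunit (-0.072 and 0.052 after rescaling to TPM). Moving Mrps30 and Mrps18a to the large subunit and leaving out Mrps36 gave 0.304 and 0.35. Mrps30 itself had a log2 fold change of 0.45 (adjusted p = 0.143 by limma), with KO replicate 3 far above the other KO libraries. Of the risen genes, 10 encode proteins with a bacterial counterpart, out of 47 tested, and 1 encodes a protein found only in mitochondria, out of 29. The medians of these classes were 0.294 and 0.333, so the counts differed more than the medians did.

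**Figure D1:**
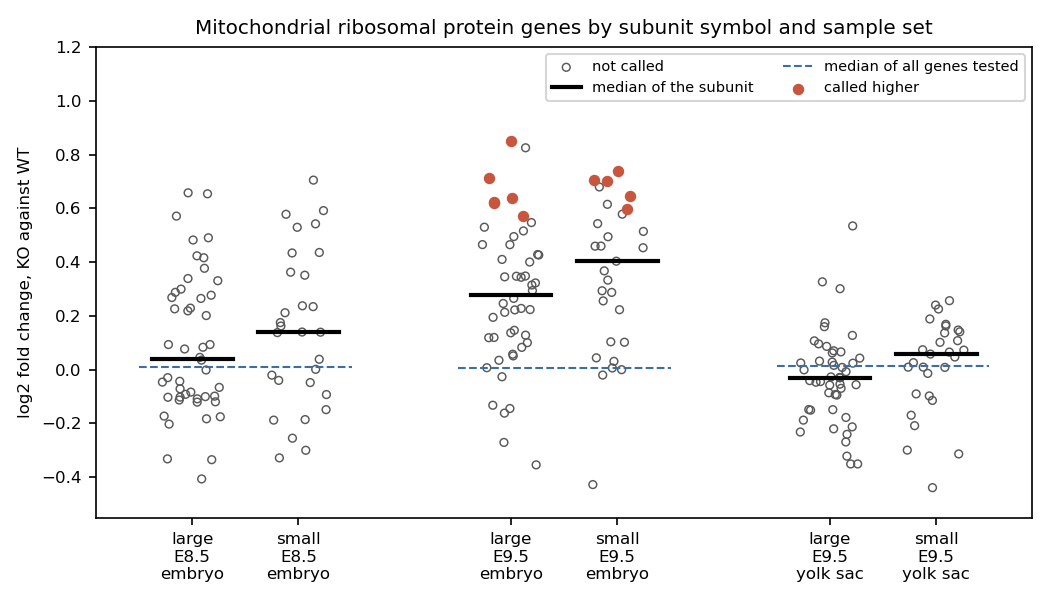
Log2 fold change of KO against WT for each of the 77 tested mitochondrial ribosomal protein genes (points), by subunit symbol and sample set. Black bars are subunit medians, the dashed line is the median of all genes tested and red points are the 11 genes called higher in E9.5 embryos, where the medians were 0.280 and 0.403 (-0.072 and 0.052 after rescaling to TPM).

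Mrpl14 (ENSMUSG00000023939, GRCm38 chromosome 17, 45686322 to 45698495, plus strand), a conserved protein at the interface between the subunits, had the largest rise. Its scaled FPKM in E9.5 embryos was 24.8, 25.5, 25.4 and 37.2 in WT replicates 1 to 4, and 38.6, 57.7, 52.1 and 56.2 in the KO replicates. All KO libraries were above all WT libraries, although WT replicate 4 came close to KO replicate 1. The log2 fold change was 0.85 (SE 0.18, adjusted p = 0.0245 by limma). In E8.5 embryos Mrpl14 was 45.3 to 57.3 in WT and 59.9 to 115.7 in KO, again without overlap, with a log2 fold change of 0.66 that did not pass the test (adjusted p = 0.0922 by limma). In yolk sac it had the highest fold change of any member, 0.53, with overlapping groups (adjusted p = 0.196 by limma).

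Mrps24 (chromosome 11, 5703983 to 5715680, minus strand) encodes the counterpart of bacterial S3, at the entry of the mRNA channel. It measured 20.4, 18.7, 21.4 and 23.6 scaled FPKM in WT E9.5 embryos and 25.1, 48.4, 32.3 and 39.3 in KO. The groups did not overlap, and KO replicate 1 lay just above the highest WT library. The log2 fold change was 0.74 (SE 0.19, adjusted p = 0.0367 by limma). Of its exon bases, 15.4 percent are shared with Urgcp on the same strand.

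Mrpl12 (chromosome 11, 120484613 to 120489065, plus strand) encodes the stalk protein that recruits translation factors and is also known to bind the mitochondrial RNA polymerase. In E9.5 embryos it measured 69.7, 58.0, 58.7 and 80.9 in WT and 82.3, 148.6, 95.3 and 120.2 in KO. KO replicate 1 stood just above the highest WT library and the others well above it. The log2 fold change was 0.71 (SE 0.20, adjusted p = 0.0433 by limma). The other stalk protein, Mrpl10 (uL10m), measured 37.8, 26.9, 31.2 and 28.8 in WT and 45.3, 51.6, 46.0 and 48.9 in KO, with a log2 fold change of 0.62 (adjusted p = 0.0254 by limma). Mrpl10 was the most even of the risen genes across KO libraries, with an SD of 2.90 on a mean of 48.0.

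The genes Mrps18a, Mrps18b and Mrps18c are paralogues that descend from 1 bacterial protein, S18, and occupy different places on the ribosome. Mrps18b (chromosome 17, 35910379 to 35916389, minus strand) rose, from 15.3, 10.3, 12.6 and 12 in WT E9.5 embryos to 16.8, 19.8, 24.6 and 21.9 in KO, a log2 fold change of 0.71 (SE 0.16, adjusted p = 0.0283 by limma). The groups did not overlap. Of its exon bases, 30.5 percent are shared with the antisense gene Gm16279, and the sources do not say that counting used strand. Mrps18a had a log2 fold change of 0.58 (adjusted p = 0.0684) and Mrps18c one of 0.03 (adjusted p = 0.927), both by limma and neither past the threshold. The difference between the paralogues was not tested.

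In the small subunit, Mrps16 measured 12.6, 11.6, 10.6 and 12.9 in WT E9.5 embryos and 16.2, 21.2, 19.3 and 22.4 in KO, a log2 fold change of 0.70 (SE 0.14, adjusted p = 0.0207 by limma, the smallest among the members). Mrps21 measured 48.8, 66.8, 65.2 and 68.0 in WT and 78.5, 91.6, 104.7 and 116.9 in KO, a log2 fold change of 0.65 (SE 0.17, adjusted p = 0.0350 by limma). Neither gene's groups overlapped, and WT replicate 1 was low for Mrps21. The remaining risen genes were Mrpl28 (0.64), Mrpl4 (0.62), Mrps26 (0.60) and Mrpl2 (0.57), each with every KO library above every WT library. All 11 risen genes had such separation, as had 16 of the 77 members, against 11.2 percent of all genes tested. The lowest member was Mrps22, a small-subunit protein found only in mitochondria, at 7.47, 13, 11.4 and 10.3 in WT and 6.39, 7.11, 7.80 and 9.20 in KO, a log2 fold change of -0.43 (adjusted p = 0.126 by limma). Its groups overlapped through WT replicate 1. No member had all KO libraries below all WT libraries, which 10.9 percent of all genes tested had.

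**Figure D2:**
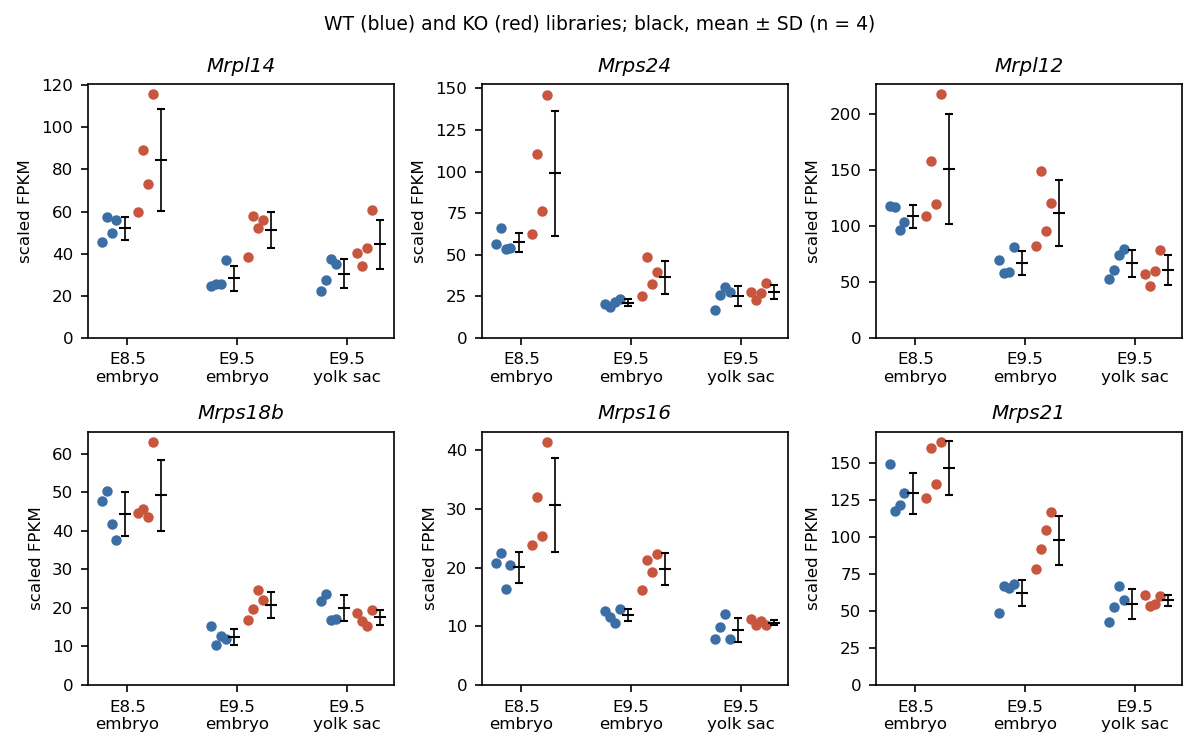
Scaled FPKM of the 6 named risen genes in every library of the 3 sets, WT in blue and KO in red, in replicate order, with mean and SD (n = 4). The 6 genes were chosen as called members whose groups do not overlap in E9.5 embryos, so the separation in that set follows from the choice. In yolk sac all 6 overlap.

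The starts of these genes were searched for binding motifs of factors known to act on nuclear genes for mitochondrial proteins. Promoter sequence from RefSeq (GRCm38.p6, 250 bases before to 50 bases after the start) was listed for 69 of the 78 genes. On either strand, the ETS-type motif CCGGAAG was present in 37.7 percent of them, against 13.4 percent of 16522 protein-coding genes with a listed promoter. The NRF1 motif GCGCNNGCGC, which reads the same on both strands, was present in 20.3 against 10 percent, and the YY1 motif AAGATGGC in 17.4 against 3.6 percent. Among the 10 risen genes with a listed promoter, 4 held the ETS-type motif, 5 the NRF1 motif and 1 the YY1 motif. Among 58 tested members that were not called, 21, 9 and 11 did. Of the risen genes, 4 held a match before the RefSeq start. The ETS-type matches of Mrps16 and Mrps26 lie inside the gene as GENCODE annotates it, and Mrps16 has a second listed promoter without the motif. The NRF1 matches of Mrpl12 and Mrps21 lie outside the gene in both annotations and hold the same letters. They are shown with 20 bases on either side, 5′ to 3′ on the strand of the gene and with the motif in capitals. The stretch of Mrpl12 is chr11:120484536-120484585 (plus strand) and that of Mrps21 is chr3:95871576-95871625 (minus strand).
Mrpl12: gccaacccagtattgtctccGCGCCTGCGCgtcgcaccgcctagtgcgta
Mrps21: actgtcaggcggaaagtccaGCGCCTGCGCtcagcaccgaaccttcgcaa
These matches end 71 and 81 bases before the RefSeq start. A match describes these letters and does not show that a factor binds there.

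The size of the shift was uneven among E9.5 KO libraries. Against the WT mean, the median member was at 0.069 on the log2 scale in KO replicate 1, 0.246 in replicate 2, 0.446 in replicate 3 and 0.524 in replicate 4, while WT libraries ran from -0.076 to 0.126. KO replicate 1 thus lay within the WT range and the other KO libraries above it. Computed within replicate numbers 1 and 2, the median member fold change was 0.095, and within 3 and 4 it was 0.495, and the labels do not say what the numbers stand for. Gene length moved with the result, taken here and below as the merged exon bases over all transcripts of a gene. Across all genes, Spearman's rho between this exon length and log2 fold change was -0.360 in this set. The members have a median exon length of 2533 bases, against 4160 for all genes tested. After a length trend was removed, the member median was 0.222, against 0.016 over all genes, and 2 of the 11 genes were still called. Beyond this correction the part of length was not tested.

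**Figure D3:**
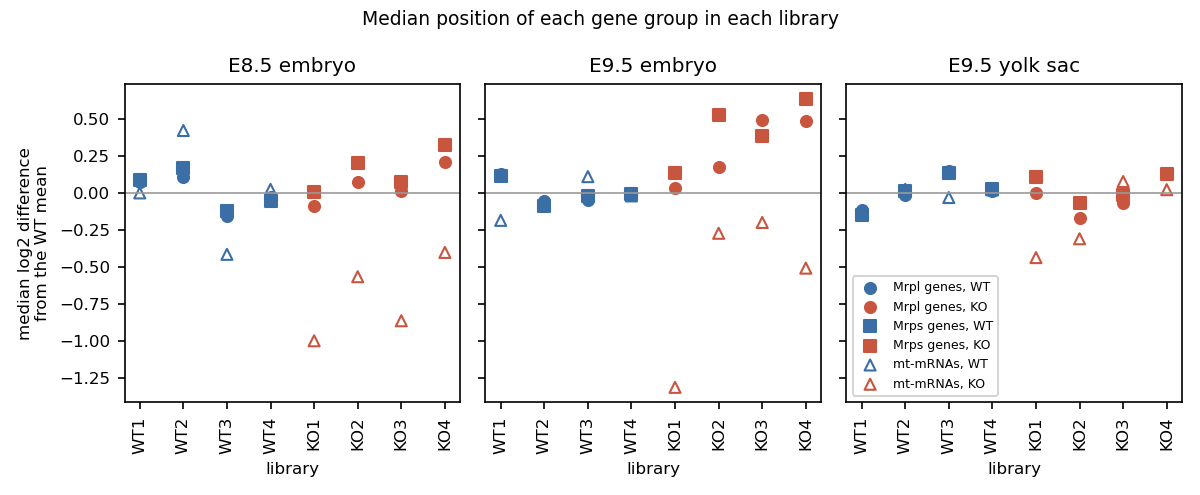
Median log2 difference from the WT mean in each library for Mrpl genes (circles), Mrps genes (squares) and mitochondrially encoded mRNAs (open triangles), WT in blue and KO in red. In E9.5 embryos the median over both subunits ran from 0.069 to 0.524 in KO libraries, and the mitochondrial mRNAs from -1.31 to -0.198.

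In E8.5 embryos none of the 77 members was called in either direction by limma, where 0.528 percent of all genes tested were called higher and 0.429 percent lower. With the replicate number as a block 4 members were called higher (Mrpl14, Mrpl57, Mrps24 and Mrpl10, adjusted p = 0.0304 to 0.0467 by limma), as were 5.47 percent of all genes tested. With a term for numbers 1 and 2 against 3 and 4 the count was also 4, with Mrps36 in place of Mrps24, against 7.18 percent of all genes. The labels do not say that the numbers pair the libraries. Same-numbered libraries deviated together in numbers 1 to 3 (r of 0.310 to 0.382, across genes) and hardly in number 4 (0.065). At an unadjusted p under 0.05, 13 members were higher and 1 lower in the fit without these terms. Their median log2 fold change was 0.083 against 0.010 over all genes, with 0.041 for the large and 0.140 for the small subunit. After quantile normalization the member median was 0, and after rescaling to TPM -0.048, with all genes at -0.111. The pairs of replicate numbers went different ways, with a member median of -0.086 in numbers 1 and 2 and of 0.273 in 3 and 4. KO replicate 4 had the highest median member of the set, 0.279 above the WT mean, and KO replicate 1 lay 0.052 below it.

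The members with the smallest p at E8.5 were Mrpl10, Mrpl57 and Mrpl14. Mrpl10 measured 37.1, 41.0, 43.8 and 38.5 scaled FPKM in WT and 55.6, 57.6, 53.2 and 74.5 in KO, without overlap, a log2 fold change of 0.57 (SE 0.15, adjusted p = 0.0714 by limma). Mrpl57, a small mitochondria-specific protein of the large subunit, measured 17.8, 18.5, 20.4 and 25.3 in WT and 24.1, 36.1, 31.0 and 40.0 in KO, with an overlap of WT replicate 4 and KO replicate 1 and a log2 fold change of 0.65 (adjusted p = 0.0863 by limma). Groups did not overlap for 6 members, all with KO above WT, where 8.09 percent of all genes tested had KO above and 7.58 percent KO below WT. The 11 genes called at E9.5 were all above 0 in the E8.5 libraries, which are separate samples and in which 50.8 percent of all genes were above 0, with a median of 0.482 and a range of 0.140 to 0.705. Among the other 66 tested members 33 were above 0, with a median of 0.000. The 11 genes also have a shorter merged exon length, with a median of 1532 bases. Across the 77 members Spearman's rho between exon length and log2 fold change was -0.394 at E8.5 and -0.333 at E9.5. The E8.5 values themselves were scaled by the mean length of a gene's transcripts.

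The change in the KO effect from E8.5 to E9.5 embryos was tested in a joint fit of 16 libraries. None of the 77 members differed (smallest adjusted p = 0.903 by limma; 2 members at an unadjusted p under 0.05), and 0.0517 percent of 11595 genes were called above 0 and none below. The median difference over members was 0.191, E9.5 minus E8.5. Upward differences with the smallest p were those of Mrps18b (0.57), Mrps21 (0.47) and Mrps6 (0.53), and downward ones those of Mrpl41 (-0.13), Mrps22 (-0.10) and Mrps36 (-0.08). The separate counts of 0 and 11 called genes are therefore not a tested difference between stages.

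In yolk sac the same genes were close to WT. None of the 77 was called by limma, against 1.22 percent of all genes tested called higher and 1.63 percent lower, and at an unadjusted p under 0.05 there were 2 higher and 9 lower. With the replicate number as a block the members called were again 0, while the calls over all genes went from 146 to 284 higher (2.36 percent) and from 196 to 354 lower (2.95 percent). With the term for pairs of numbers Mrpl14 was called higher, and Mrps2 and Mrpl36 lower (adjusted p = 0.0388 to 0.0461 by limma), against 2.99 and 3.52 percent of all genes. The median log2 fold change was 0.008, against 0.012 over all genes, and 39 of 77 members were above 0, against 52.2 percent of all genes. The subunit medians were -0.030 for the large and 0.058 for the small subunit. The smallest p belonged to Mrps2, the counterpart of bacterial S2. It measured 22.8, 20.4, 21.3 and 22.2 in WT and 18.2, 16.5, 16.7 and 17.9 in KO, so KO lay below WT throughout, at a log2 fold change of -0.31 (SE 0.07, adjusted p = 0.0573 by limma). Mrpl36, a small zinc-binding protein of the large subunit, measured 34.5, 35.9, 40.6 and 35.6 in WT and 30.9, 26.8, 28.3 and 30.8 in KO, a log2 fold change of -0.32 (adjusted p = 0.0738 by limma). Mrps35 had a log2 fold change of -0.30 (adjusted p = 0.140 by limma). Neither overlapped with WT, and 6 members in all had KO below WT in every library, against 6.74 percent of all genes tested, while 1, Mrpl33, had KO above WT, against 5.77 percent.

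The KO effect in yolk sac was lower than in E9.5 embryos for 4 members in the joint fit, where 1.4 percent of 10511 genes were called below 0 and 0.828 percent above. These were Mrps6 (difference -0.95, SE 0.24, adjusted p = 0.0461), Mrps18b (-0.88, SE 0.21, adjusted p = 0.0439), Mrpl4 (-0.83, SE 0.20, adjusted p = 0.0451) and Mrpl10 (-0.60, SE 0.15, adjusted p = 0.0452), all by limma. Mrps6, a small-subunit protein, was the only one with no call in either tissue. It measured 10.7, 12.5, 9.58 and 12 in WT and 11.4, 17.7, 20.1 and 16.6 in KO E9.5 embryos, and 11.2, 12.6, 15.3 and 11 in WT and 8.67, 7.37, 9.38 and 11.2 in KO yolk sac, and 19.9 percent of its exon bases are shared with Slc5a3 and Gm49711. At an unadjusted p under 0.05 the effect differed for 27 members, the median difference was -0.332 against -0.006 over all genes, and 64 of 77 differences were below 0. No member was called above 0, where the smallest p belonged to Mrps22 (0.22), Mrpl33 (0.21) and Mrpl50 (0.21), with adjusted p of 0.523 to 0.599 by limma. Embryo and yolk sac samples could belong to shared conceptuses, and the fit took them as independent. Without E9.5 embryo WT replicate 1 or KO replicate 1 the count was 11 and 12, and it was 1 without yolk sac KO replicate 4 and 0 without any one of the other 13 libraries. After rescaling to TPM, or with the replicate number as a block, the count was also 0. This comparison shares the E9.5 embryo libraries with the comparison of stages.

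**Figure D4:**
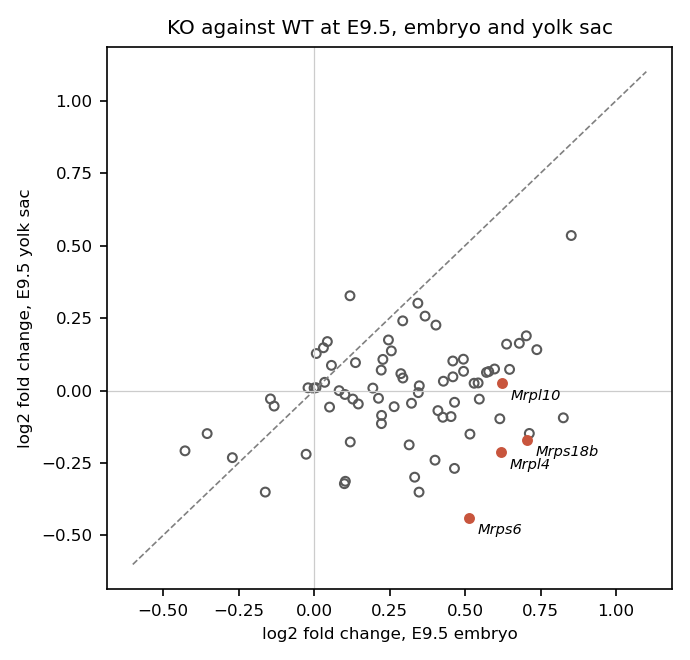
Log2 fold change of KO against WT in E9.5 embryo (horizontal) and E9.5 yolk sac (vertical) for each of the 77 tested members, with the line of equal values dashed. The 4 labelled red points were called as different between the tissues in the joint fit, by -0.60 to -0.95. None was called with the replicate number as a block.

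The mRNAs that this ribosome translates are the 13 mitochondrially encoded ones. In E8.5 embryos 2 of the 13 fell, where 0.429 percent of all genes tested were called lower. All 13 had a log2 fold change below 0, with a median of -0.705 against 0.010 over all genes, of which 50.8 percent were above 0. With the replicate block 7 of the 13 were called lower (4.19 percent of all genes), and 8 with the term for pairs of numbers (5.47 percent). mt-Nd4l, a membrane subunit of complex I, measured 28.1, 40.5, 29.2 and 48.1 scaled FPKM in WT and 13.5, 12.2, 12.2 and 10.3 in KO, a log2 fold change of -1.53 (SE 0.19, adjusted p = 0.00566 by limma). KO values were less than the lowest WT value in every library. The light-strand transcript mt-Nd6 also fell, by 1.08 on the log2 scale, from 781, 1059, 586 and 765 in WT to 296, 454, 348 and 391 in KO (adjusted p = 0.0365 by limma). In 7 of the 8 fits with 1 library left out, mt-Nd6 missed the threshold, with adjusted p up to 0.0914 by limma, while mt-Nd4l kept its call in all 8. The count was 4 without WT replicate 3, 2 without KO replicate 4 and 1 without any one of the others.

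In E9.5 embryos 5 of the 13 fell, where 6.26 percent of all genes tested were called lower, and none rose. The median was -0.517 against 0.007 over all genes, and mt-Nd3 alone was above 0, at 0.385 without a call. These were mt-Co1 (-0.96, adjusted p = 0.0385), the catalytic core of complex IV, mt-Cytb (-0.78, adjusted p = 0.0427), the mitochondrially encoded subunit of complex III, and the complex I subunits mt-Nd4 (-0.84, adjusted p = 0.0316), mt-Nd4l (-0.80, adjusted p = 0.0375) and mt-Nd5 (-0.68, adjusted p = 0.0382), all by limma. mt-Co1 measured 2243, 2728, 3647 and 2767 in WT and 964, 1328, 2082 and 1620 in KO. The groups did not overlap for mt-Co1, and KO replicate 1 had the lowest value, as it had for the median mitochondrial mRNA, at -1.31 against -0.506 to -0.198 in the other KO libraries. The member proteins' mRNAs were nearest to WT in that same library, at 0.069. The count of fallen mRNAs was 0 without WT replicate 2, 3 or 4 or KO replicate 2 or 4. It was 2 without KO replicate 3 and between 4 and 5 without WT replicate 1 or KO replicate 1. With the replicate number as a block it was 0 as well.

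The ribosome's own RNAs could not be compared in E9.5 embryos. mt-Rnr1, the small-subunit RNA, ran from 6.38 to 444 scaled FPKM in WT and from 7.48 to 970 in KO E9.5 embryos. WT replicates 3 and 4 and KO replicate 2 were listed at 6.38, 11.8 and 7.48, and the other libraries at 278 or more. mt-Rnr2, the large-subunit RNA, was low in the same 3 libraries, at 1.45, 3.35 and 2.70 against 127 or more. The 2 rRNAs had log2 fold changes of -0.584 and 0.157 in E8.5 embryos and of -0.863 and -0.092 in yolk sac, none called by limma. In yolk sac the median of the mitochondrial mRNAs was -0.227. It was -0.399 within replicate numbers 1 and 2 and 0.02 within 3 and 4. None of these mRNAs was called. The lowest was mt-Atp8, a subunit of ATP synthase, at 2.03, 1.43, 2.97 and 4.24 in WT and 1.11, 0.499, 0.975 and 0.606 in KO, a log2 fold change of -1.24 (adjusted p = 0.0573 by limma). With the replicate number as a block, mt-Atp8 was called (adjusted p = 0.0429 by limma). Its level was near the filter at FPKM 1, which all WT libraries reached and, among KO libraries, replicate 1 alone. It shares 21.1 percent of its bases with mt-Atp6.

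**Figure D5:**
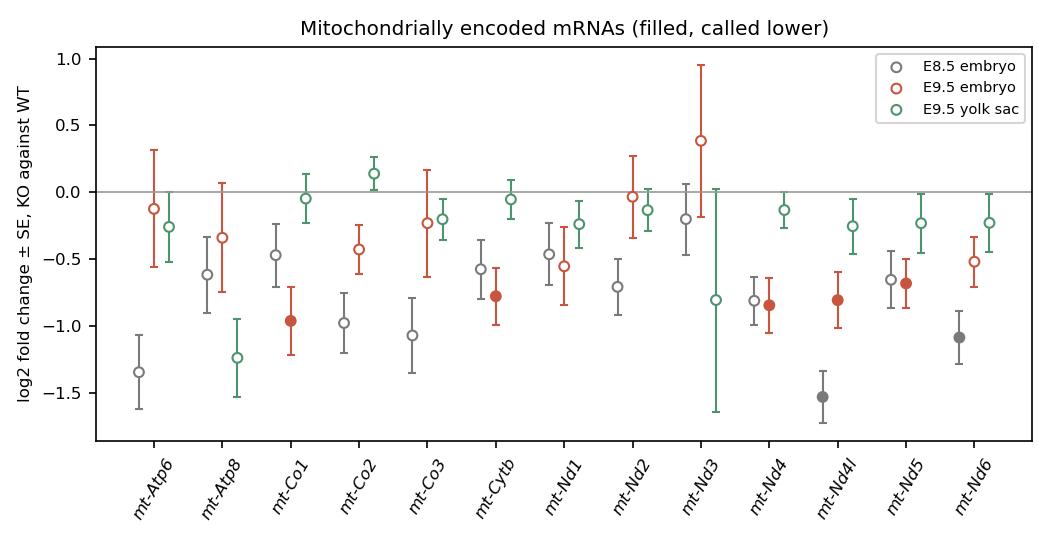
Log2 fold change of KO against WT, with SE, for the 13 mitochondrially encoded mRNAs in the 3 sets; filled points were called lower. In E8.5 embryos all 13 values lie below 0, with a median of -0.705. In yolk sac the median was -0.227, with -0.399 within replicate numbers 1 and 2 and 0.02 within 3 and 4.

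Other components of mitochondrial translation did not all follow the Mrpl and Mrps genes in E9.5 embryos. Over all genes tested in that set, 7.35 percent were called higher and 6.26 percent lower. Of 5 ribosomal proteins with other symbols, Aurkaip1 (mS38, log2 fold change 0.85, adjusted p = 0.0250) and the GTP-binding Dap3 (mS29, 0.63, adjusted p = 0.0349) rose, while Ptcd3 (mS39), an RNA-binding pentatricopeptide protein, fell by 0.69 on the log2 scale (adjusted p = 0.0479), all by limma. Chchd1 (mS37) had a log2 fold change of 0.33 and Gadd45gip1 one of 0.27, neither past the threshold (adjusted p = 0.289 and 0.505 by limma). Ptcd3 measured 9.32, 18.8, 15.3 and 15.5 in WT and 9.72, 8.82, 7.57 and 8.74 in KO, so WT replicate 1 lay among the KO libraries. Of 17 translation factors, the elongation factor Tufm rose (0.59, adjusted p = 0.0329), and the initiation factor Mtif2 fell by 0.92 (adjusted p = 0.0382) and Guf1, the mitochondrial counterpart of bacterial LepA, by 0.94 (adjusted p = 0.0187), all by limma. Guf1 measured 3.13, 5.11, 4.38 and 3.71 in WT and 2.18, 1.71, 1.87 and 1.70 in KO, without overlap. It was also called lower in E8.5 embryos, at 14, 16.1, 13.1 and 15.5 in WT and 5.60, 9.20, 8.41 and 7.09 in KO (log2 fold change -0.93, adjusted p = 0.0461 by limma), a call lost in each of the 8 fits with 1 library left out. Of all genes tested at E8.5, 0.429 percent were called lower. Of 27 assembly and rRNA modification factors only C1qbp was called in E9.5 embryos, higher by 0.56 (adjusted p = 0.0294 by limma). This is 3.7 percent of that list, below the share of all genes called higher. The calls among translation factors were 5.88 percent of their list higher and 11.8 percent lower. In yolk sac Lrpprc, which stabilizes mitochondrial mRNAs, fell by 0.42 on the log2 scale (adjusted p = 0.0229 by limma), where 1.63 percent of all genes tested were called lower. These calls were also lost in fits with 1 library left out. Over all genes at E9.5, such fits called 78 to 1305 higher, against 884, and 18 to 1432 lower, against 753. In yolk sac they called 47 to 156 lower, against 196. The E9.5 call of Guf1 was lost in 4 of the 8 fits with 1 library left out, that of Ptcd3 in 7 and those of the other genes named in 5 or 6, and the yolk sac call of Lrpprc was lost in 6.

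Other nuclear gene groups with a short merged exon length lay further from WT in the same E9.5 embryos. There 7.35 percent of all genes tested were called higher and 6.26 percent lower, with a median of 0.007. Of 77 cytosolic ribosomal protein genes 24 rose and none fell, with a median log2 fold change of 0.525. Of 80 tested nuclear genes of the respiratory chain 18 rose and 1 fell, with a median of 0.485. Their median exon lengths were 1781 and 1578 bases. In yolk sac their medians were 0.244 and 0.149 while that of the mitochondrial ribosomal protein genes was 0.008, and whether the groups differ was not tested.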

How the data were processed

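The authors deposited FPKM (fragments scaled by gene length and library size) per gene, 1 table for each set of 8 libraries. Per the labels' protocols, DNase-treated TRIzol RNA went into NEBNext Ultra libraries. The submitters' processing notes name DESeq2, GRCm38 and mm10. The aligner, the counter and any use of strand were not given in the sources used here. Symbols, positions and lengths came from GENCODE M21, which holds 54495 of the 54532 gene IDs. Low values were whole multiples of 1 fragment for 97.6 to 98.6 percent of values (tolerance 0.02 fragments), taking the mean length of a gene's transcripts at E8.5 and its merged exons in both E9.5 tables. This gave the depths, and levels are not compared between those tables. In E9.5 embryos the FPKM denominators were 1.004 to 1.059 times the summed fragments in WT and 0.857 to 0.966 times in KO. The genotypes thus did not overlap there. In yolk sac they were 0.953 to 1.001 times in WT and 0.948 to 1.014 times in KO, and in E8.5 embryos 1.007 to 1.008 times. The part of this ratio in the results was not tested.

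Values were scaled by the median of ratios, table by table, and log2(value + 0.5) was tested, which shrinks the fold change of low genes. Genes that reached FPKM 1 in 4 or more of the 8 libraries entered limma 3.58.1 (R 4.3.3; genotype alone, trended empirical Bayes), with Benjamini-Hochberg adjustment over all genes tested and calls at an adjusted p under 0.05. Differences of the KO effect were contrasts in joint fits of 16 libraries. The fit of genotype alone was first tested on simulated data for each set. The joint fits and the alternatives were not tested in this way. Motifs, tables and figures used Python 3.11.15, pandas 2.3.3, numpy 2.4.6, scipy 1.17.1 and matplotlib 3.10.9.

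The members, lists, tests and alternatives were chosen with earlier results of these data known. The text names, per set, up to 6 called members in each direction with the largest fold change and no overlap (or the 3 with the smallest p), up to 3 members in each direction of each difference with the smallest p, the 3 highest and lowest by WT level, a fixed panel (Mrps18a, Mrps18b, Mrps18c, Mrps30, Mrps36, Mrpl12, subunits with other symbols, mitochondrial RNAs) and called genes of the other lists. Other members named in counts were chosen after their values were seen.

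The labels do not tie libraries to litters, and p-values reflect only the spread among the libraries at hand. Pearson correlations between replicates, across genes, were 0.914 to 0.978. Same-numbered KO and WT libraries deviated together in yolk sac (r of 0.208 to 0.387 in all 4 pairs, across genes), so the number may mark a pairing there. The main fit still took genotype alone, and the blocked value is given where it changed a call. They did not in all pairs of E8.5 embryos (0.065 to 0.382) or of E9.5 embryos (-0.207 to 0.154). The alternatives changed the pseudocount, filter, scaling, trend, gene set, length correction, block or batch term, or left out libraries.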

Additional observations from a re-analysis of the deposited data

Results flagged for a closer look

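The KO effect was called different between yolk sac and E9.5 embryo, by the test of the difference itself, for Mrps18b (-0.88), Mrpl4 (-0.83), Mrpl10 (-0.60) and Mrps6 (-0.95), on the log2 scale. These calls were fragile. With 1 library left out the count of such members ran from 0 to 12, and it was 0 after rescaling to TPM or with the replicate block.

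Among 258 sets of 4 libraries examined for the named members and the mitochondrial RNAs, 13 held 1 library far from the other 3, by Dixon's 95 percent limit for the gap over the range, a limit that chance passes in about 1 of 20 sets. In E9.5 embryos WT replicate 1 was apart for 3 members, being high for Mrpl18 at 58.2 scaled FPKM (others 37.3 to 39.2) and low for Mrpl57 at 5.36 (others 10.5 to 11.3) and Mrps21 at 48.8 (others 65.2 to 68.0). WT replicate 4 was high for Mrpl14 at 37.2 (others 24.8 to 25.5), mt-Atp6 at 78.4 (others 56.8 to 58.8) and mt-Nd3 at 41.3 (others 7.74 to 11.5). KO replicate 3 was high for Mrps30 at 13.8 (others 7.18 to 8.04), and KO replicate 1 low for mt-Nd4l at 5.39 (others 9.30 to 10.1).

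In yolk sac WT replicate 1 was high for mt-Atp6 at 59.1 (others 25.9 to 27.1) and for mt-Nd3 at 107.5 (others 5.21 to 9.67). KO replicate 4 was high for Mrpl34 at 76.6 (others 59.8 to 62.2) and KO replicate 2 low for Mrps25 at 4.11 (others 4.86 to 4.92). In E8.5 embryos KO replicate 4 was high for Mrps18b at 63.0 (others 43.6 to 45.8).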

How the results depend on the processing

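Of the 11 members called higher in E9.5 embryos, 11 remained with another pseudocount, a filter at FPKM 5, values as deposited, protein-coding genes alone and voom on recovered fragments (chosen after seeing the data; a count model was not run). The count was 0 with no filter, after rescaling to TPM, with the replicate block, without the 3 libraries low in tailbud genes, and within replicate numbers 1 and 2 or 3 and 4 alone. It was 1 with quantile normalization and length correction together, 2 with length correction, 3 with quantile normalization, 6 with a batch term (numbers 1 and 2, or 3 and 4) and 7 with no trend. Leaving out 1 library gave 0 to 22. Over all genes the calls fell with it, from 884 higher to 82 with no filter, 137 with TPM, 108 with the block and 28 without the 3 libraries. The median of the members less that of all genes stayed between 0.104 and 0.502 over all 27 settings of that set. Members called lower there numbered 3 with TPM, 1 without the 2 libraries with the fewest genes and 1 with quantile normalization and length correction, and 0 to 2 with 1 library left out. With TPM the median of all genes was itself -0.317. With 1 library left out, 18 to 1432 of all genes were called lower. For the other settings the share of all genes called lower is not given here, so these counts are not read as a result about the members.

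Fallen mitochondrial mRNAs in E9.5 embryos (5) numbered 0 with no filter, with the block, without the 3 libraries and within each pair of numbers, and 8 with quantile normalization, with or without length correction; leaving out 1 library gave 0 to 5. In E8.5 embryos (2) they numbered 1 with no filter, without the 2 libraries with the fewest genes and within each pair, 4 with the filter at 5, 5 as deposited, 7 with TPM, the block or length correction and 8 with quantile normalization or the batch term; leaving out 1 library gave 1 to 4. Members called higher in E8.5 embryos numbered 4 with the replicate block and 4 with the batch term, against 0. Of all genes tested, 5.47 and 7.18 percent were called higher in those fits.

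In yolk sac, members called lower numbered 1 with TPM, 2 with quantile normalization, 1 among protein-coding genes, 3 with length correction and 2 with the batch term, and members called higher 1 with the batch term, all against 0. With the batch term 3.52 percent of all genes tested were called lower and 2.99 percent higher. For the other settings the share of all genes is not given here, so these counts are not read as a result about the members. Fallen mitochondrial mRNAs numbered 1 with the block, protein-coding genes alone or the batch term. The 4 differences between yolk sac and embryo numbered 0 with TPM or the block and 1 with no trend, and 0 to 12 with 1 library left out. The causes were not tested.

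Replicate numbers in the labels do not state a pairing. In both embryo sets some same-numbered pairs correlated below 0.1. In every set, yolk sac included, at least 1 WT library correlated best with a KO library of another number. Calls lost or gained under the block in embryos are given beside the main fit, and which fit is right was not tested. For the 27 called single genes, 335 of 691 alternatives kept the call, 356 lost it and none changed the sign. For the 75 single genes without a call, 71 of 1796 alternatives gained one and 69 changed the sign, none of these with a call. Of 12 medians of members, subunits and mitochondrial mRNAs, 9 changed sign under at least 1 alternative (24 of 292), among them those of all members in each set, after rescaling to TPM. The effect of depth on calls was not tested.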

Other observations

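Mrps36, whose protein belongs to the oxoglutarate dehydrogenase complex, had a log2 fold change of 0.54 in E8.5 embryos (adjusted p = 0.115), 0.46 in E9.5 embryos (adjusted p = 0.148) and 0.05 in yolk sac (adjusted p = 0.891), all by limma and none past the threshold. Mrps25 and Mrps34 share 69.8 and 77.8 percent of their exon bases with neighbouring genes, so their values may hold fragments of those genes. In E9.5 embryos their log2 fold changes were 0.29 and 0.37, with adjusted p = 0.189 and 0.337 by limma. In all, 33 of the 78 genes share an exon base with another gene and 10 share over 20 percent.

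The log2 fold change was above 0 in both embryo sets for 43 of the 77 tested members and in all 3 sets for 26.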
